A study of Homo sapiens with 15 samples.

Results

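Epithelial-mesenchymal transition (EMT) is the program by which epithelial cells give up their junctions and take on a migratory, fibroblast-like state. Transcription factors of the ZEB, SNAIL and TWIST families drive it. They bind E-box sequences and repress epithelial genes, above all CDH1, which encodes the junction protein E-cadherin. Vimentin (VIM), N-cadherin (CDH2) and cadherin-11 (CDH11) are genes of the mesenchymal state. Claudin-low breast cancer cells are known for an EMT-like state with high vimentin and little E-cadherin. The 10 genes described here are ZEB1, ZEB2, SNAI1, SNAI2, TWIST1, TWIST2, VIM, CDH1, CDH2 and CDH11, and the question was whether their promoters and nearby regulatory regions carried different active histone marks in metastatic sub-populations of one such line.

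ChIP-seq of H3K4me3, a mark of active promoters, and of H3K27ac, which marks active enhancers as well as promoters, was compared in MDA-MB-231 cells, a claudin-low human breast cancer line (Par), and in 2 sub-populations of it. LM2 was selected in mice for growth in lung and BrM2 for growth in brain. Each of the 3 lines had 2 replicates per mark, and all cells were grown as monolayers in medium with 10% serum for 3 days and, per the labels, fixed with 1% formaldehyde for 10 min. A longer fixation is stated in the methods of the study, and the sources differ on this point. All 3 are derivatives of one tumour line grown in culture, and each metastatic state is represented by 1 selected population, so that selection and line cannot be told apart. The 3 input samples were not analysed here, and a difference in DNA copy number between the lines was not tested directly.

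Regions were the consensus peaks that the authors called on the merged libraries of each mark, in hg19 coordinates. H3K4me3 peaks were members when they lay within 2 kb of an annotated start of a listed gene, and H3K27ac peaks when a listed gene had the nearest protein-coding start and that start was within 100 kb. Of 22572 H3K4me3 peaks, 8 were members, at 7 of the 10 genes, and of 62195 H3K27ac peaks, 59 were members, at all 10. Values are given as CPM, the count in a peak after each library was scaled to the same total in the peaks of its mark. Total counts in peaks were 3489607 to 9839629 for H3K4me3 and 1994996 to 6450028 for H3K27ac. Markers of both mesenchymal and epithelial breast cells were marked. All 6 claudin-low markers (VIM, ZEB1, CD44, AXL, CAV1, LGALS1) had a promoter H3K4me3 peak at 25.3 to 329 CPM in every library. Of 10 breast epithelial markers 7 had one, and KRT5, KRT14 and ELF5 had none. KRT19 had 51.8 to 130.1 CPM, the peak shared by KRT8 and KRT18 at least 59.2 and EPCAM 22.9 to 52.0. These levels overlapped those of LGALS1, the lowest of the 6 claudin-low markers (25.3 to 77.8 CPM). The other claudin-low markers had at least 85.8 CPM in every library. The ranges of KRT19 and of the KRT8 and KRT18 peak also overlapped that of CAV1 (85.8 to 207 CPM). KRT19 further overlapped CD44 (102.6 to 193.4) and AXL (114.5 to 329.4). Lower epithelial markers were GATA3 (8.03 to 40.7 CPM), ESR1 (6.88 to 39.5) and CDH1 (2.01 to 8.03). Of other cell types, 2 of 4 fibroblast markers (COL1A1, PDGFRB), 1 of 4 leukocyte markers (CD14) and 0 of 4 endothelial markers had one, with PECAM1 not found in the annotation used.

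H3K4me3 separated the 10 genes into well-marked, weakly marked and unmarked promoters. In CPM per peak, ZEB1 and VIM were highest in every library, ZEB2, CDH11, SNAI2 and SNAI1 were intermediate, and CDH1 was lowest in every library. TWIST1, TWIST2 and CDH2 had no H3K4me3 peak within 2 kb of any start. The nearest peak of the mark lay 589.648 kb from the MANE Select start of TWIST1, 16.41 kb from that of TWIST2 and 61.952 kb from that of CDH2. A region without a consensus peak has no count in the table, so that a low level there cannot be given a value.

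ZEB1 encodes a zinc-finger repressor that binds E-boxes in CDH1 and in microRNA genes of the epithelial state. Its promoter peak (chr10:31606725-31610664, which also covers the start of the antisense gene ZEB1-AS1) held 262 and 243 CPM in Par, 264 and 235 in LM2, with 208 and 205 in BrM2. In CPM both BrM2 libraries were below the other 4, but scaled as in the DESeq2 test BrM2 and LM2 overlapped. The log2 difference was 0.02 ± 0.33 (SE) in LM2 and -0.36 ± 0.33 in BrM2 against Par, with DESeq2 adjusted p of 1 and 0.916 and 95% intervals of -0.63 to 0.67 and -1.01 to 0.28. With the replicate number as a block the BrM2 value was -0.35 with an adjusted p of 0.00278 (DESeq2), and BrM2 was also below LM2 (-0.36, adjusted p = 0.00144). The fall at ZEB1 was therefore called only when the replicate numbers were treated as pairs. Per kb of peak, ZEB1 had 59.9 CPM, above 97.69% of the 13982 H3K4me3 peaks at protein-coding promoters, whose median was 23.4 CPM per kb.

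VIM encodes the intermediate filament of mesenchymal cells. Its promoter peak (chr10:17268692-17275223, shared with VIM-AS1) held 222 and 214 CPM in Par, 228 and 199 in LM2, with 250 and 212 in BrM2. The groups overlapped fully. The log2 difference was 0.01 ± 0.34 in LM2 and 0.02 ± 0.34 in BrM2, with 95% intervals of -0.66 to 0.68 and -0.65 to 0.69 (DESeq2 adjusted p = 1 and 0.996). The peak was longer than 98.66% of promoter peaks, and its density of 33.8 CPM per kb was above 73.19% of them. A second, small VIM peak (chr10:17276233-17276490, in an intron) had at most 2.11 CPM in any library.

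ZEB2, the paralogue of ZEB1, had 88.3 and 68.7 CPM in Par, 105 and 94.8 in LM2, with 89.3 and 86.6 in BrM2 (chr2:145273322-145278655, shared with ZEB2-AS1 and LINC01412). In CPM both LM2 libraries were above all 4 others, but scaled as in the DESeq2 test the lines overlapped. The log2 difference of 0.38 ± 0.36 in LM2 had an adjusted p of 1 (DESeq2) and became 0.39 with an adjusted p of 0.0383 with the replicate block. In BrM2 it was 0.09 ± 0.36.

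SNAI1 and SNAI2 encode the SNAIL and SLUG repressors. The SNAI1 promoter peak (chr20:48598530-48600360) held 25.2 and 28.7 CPM in Par, 25.2 and 29.8 in LM2, with 27.1 and 27.4 in BrM2. The groups overlapped. The log2 difference was 0.06 ± 0.36 in LM2 and -0.05 ± 0.36 in BrM2, with intervals of -0.65 to 0.76 and -0.75 to 0.66. The SNAI2 peak (chr8:49831093-49834931) held 40.4 and 58.98 CPM in Par, 48.9 and 61.0 in LM2, with 65.0 and 63.9 in BrM2. In CPM BrM2 lay above both other lines, but scaled as in the DESeq2 test it overlapped LM2. The log2 difference of BrM2 from Par, 0.33 ± 0.33 (95% interval -0.31 to 0.98), did not pass the test with or without the block (DESeq2 adjusted p = 0.243 and 0.948). Per kb of peak, SNAI1 had 14.9 CPM, SNAI2 14.7 and ZEB2 16.7, all below the median of promoter peaks.

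CDH11, a cadherin of mesenchymal and osteoblast lineages, had the largest H3K4me3 difference from Par among the main promoter peaks. At 11.3 CPM per kb it was above 22.27% of promoter peaks. Its peak (chr16:65153077-65158176) covers the start of the gene. It held 65.3 and 82.4 CPM in Par, 34.9 and 40.4 in LM2, with 55.7 and 67.5 in BrM2. In CPM both LM2 libraries lay below the other 4, whereas Par and BrM2 overlapped. Scaled as in the DESeq2 test, LM2 was again lowest, and both BrM2 libraries lay below both Par libraries. The log2 difference was -0.94 ± 0.32 in LM2 (95% interval -1.56 to -0.31) with a DESeq2 adjusted p of 0.104, and -0.32 ± 0.32 in BrM2 (adjusted p = 0.945). With the replicate block the fall in LM2 was called, at -0.95 with an adjusted p of 6.65e-07, and so was the higher level in BrM2 than in LM2 (0.62, adjusted p = 0.00179).

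At CDH1 the H3K4me3 peak (chr16:68770967-68772145), at the start of the gene, was small in every line. It held 7 and 36 counts in Par, 11 and 79 in LM2, with 29 and 62 in BrM2, or 2.01 and 5.36, 2.52 and 8.03, and 6.33 and 7.68 CPM. Replicate 1 was below replicate 2 in each line, and the groups of Par and LM2 overlapped. The log2 difference was 0.52 ± 0.66 in LM2 and 0.86 ± 0.66 in BrM2, and the 95% interval of the latter was -0.43 to 2.15, too wide to tell a rise from no difference at this depth. At 4.51 CPM per kb the CDH1 peak exceeded 11.44% of promoter peaks.

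**Figure D1:**
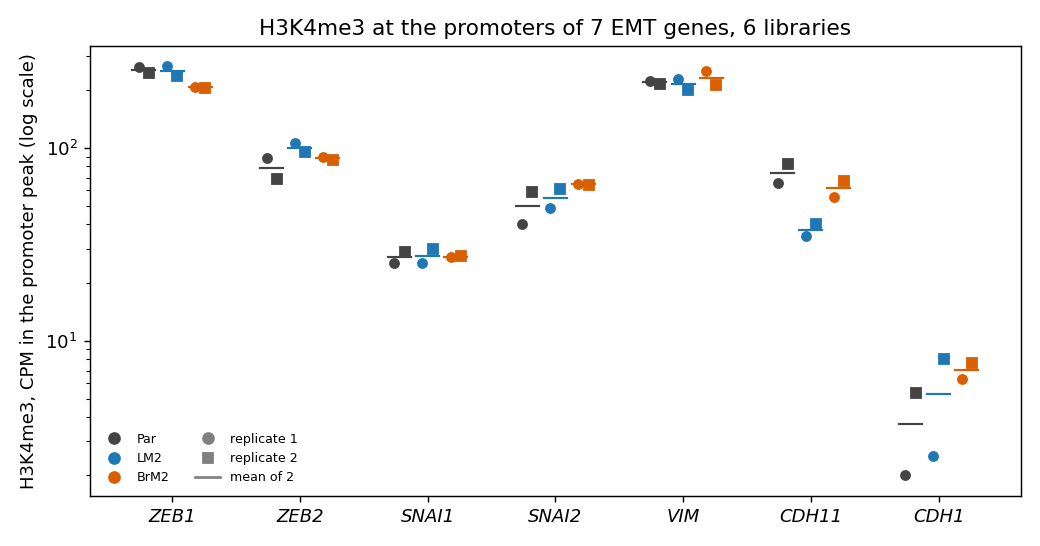
H3K4me3 in the main promoter peak of 7 EMT genes, in CPM on a log axis, for Par (grey), LM2 (blue) and BrM2 (orange), with circles for replicate 1, squares for replicate 2 and a line at the mean of 2. The 6 libraries of VIM, ZEB1 and SNAI1 lie close together, the LM2 libraries of CDH11 (34.9 and 40.4 CPM) lie below the others, and CDH1 is lowest in every library.

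In the count over members, 0 of 8 H3K4me3 peaks passed the DESeq2 test in LM2 against Par, 0 of 8 in BrM2 against Par, 0 of 8 in both metastatic lines against Par and 0 of 8 in BrM2 against LM2. Across all tested H3K4me3 peaks 2.51%, 3.61%, 2.63% and 3.18% passed. At an unadjusted p under 0.05 the DESeq2 counts were 1, 0, 1 and 0 members, and edgeR called 0 members in each contrast, against 1.61%, 3.07%, 1.6% and 2.81% of all peaks, and had 1 at an unadjusted p under 0.05 in each. With the replicate block DESeq2 called 2 (ZEB2 higher, CDH11 lower), 1 (ZEB1 lower), 1 of 7 with an adjusted p (CDH11 lower) and 2 (CDH11 higher, ZEB1 lower) members in the same order, against 14.4%, 17.7%, 15.2% and 22% of all tested peaks. The median log2 difference of the 8 members was 0.12 in LM2 and 0.05 in BrM2, beside 0.02 and -0.02 over all peaks.

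H3K27ac gave a finer picture, because each gene had between 1 (CDH11) and 13 (CDH2) peaks. Of the 59 peaks 25 were intergenic, 20 intronic and 14 overlapped an exon. Their mean levels ran from 0.897 to 113 CPM, with a median of 5 CPM, and 22 were under 3 CPM. In LM2 against Par, 2 of the 45 members with an adjusted p were called (4.44%, against 3.63% of all tested H3K27ac peaks). In BrM2 against Par it was 1 of 46 (2.17%, against 5.29%), in both metastatic lines against Par 2 of 45 (4.44%, against 4.85%), and in BrM2 against LM2 1 of 40 (2.5%, against 2.94%). These shares were near or below the background. The 3 contrasts against Par share the Par libraries. At an unadjusted p under 0.05 the counts were 7, 5, 7 and 6 members. edgeR called 2, 2, 3 and 2 of 59 members, against 5.14%, 6.88%, 6.32% and 3.89% of all peaks. With the replicate block DESeq2 called 3 of 41, 1 of 45, 2 of 38 and 2 of 35, against 5.44%, 8.13%, 7.66% and 6.17%. The members' median log2 difference was -0.12 in LM2 and -0.26 in BrM2, beside -0.02 over all H3K27ac peaks in each. The called members were 3 peaks, one each at CDH11, CDH1 and SNAI1.

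**Figure D2:**
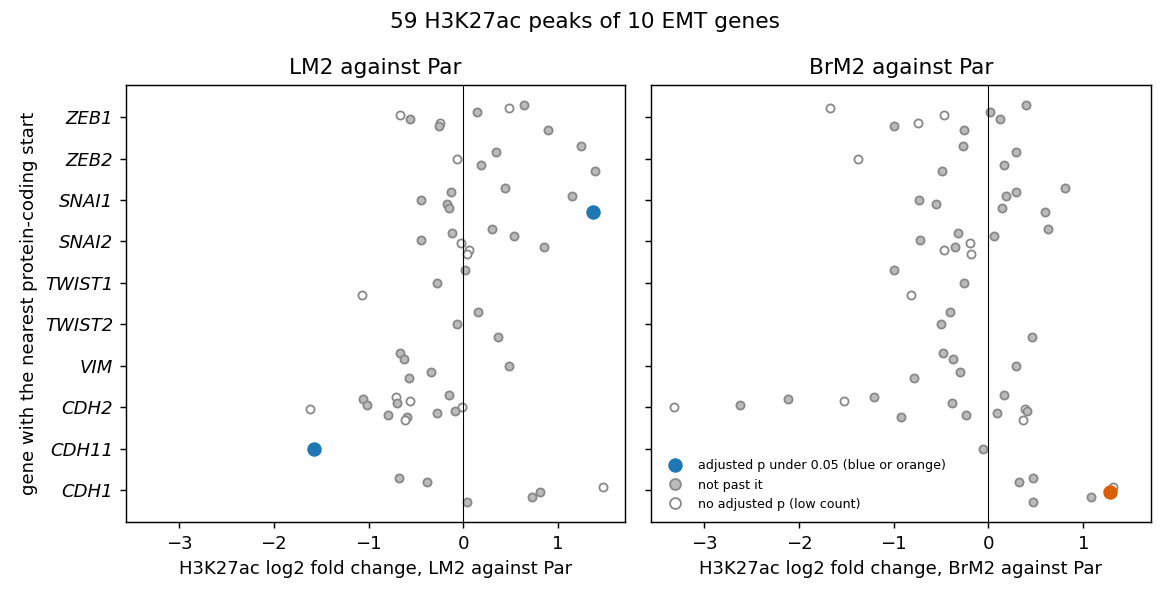
Log2 fold change of H3K27ac in LM2 (left) and BrM2 (right) against Par for the 59 peaks of 10 EMT genes, with 1 row of points per gene ordered by position. Large coloured points passed the DESeq2 test, which were the CDH11 and SNAI1 peaks in LM2 and the CDH1 intron peak in BrM2, and open points had no adjusted p because of low counts.

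The only H3K27ac peak of CDH11 (chr16:65155479-65158303) covers the start of the gene. It held 20.1 and 18.0 CPM in Par, 6.05 and 7.45 in LM2, with 17.6 and 19.0 in BrM2. Both LM2 libraries lay below the other 4, which overlapped. H3K27ac fell by 1.58 ± 0.41 on the log2 scale in LM2 (2.98-fold lower than in Par, DESeq2 adjusted p = 0.00679), and it was 1.52 ± 0.42 higher in BrM2 than in LM2 (adjusted p = 0.0164). BrM2 differed from Par by -0.06 ± 0.40 with a 95% interval of -0.83 to 0.72. Both marks were lower in LM2 at this promoter. H3K27ac was called in every fit on all 6 libraries, and H3K4me3 with the block, with loess offsets, with chromosome medians removed and with at least 10 counts in every library. The fall in LM2 lost its call without any one of the Par or LM2 libraries (adjusted p of 0.0805 to 0.43), with values of -1.74 to -1.40, and the difference between BrM2 and LM2 lost it without any one BrM2 or LM2 library or Par replicate 1.

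The surroundings of CDH11 differed by side in LM2. The 11 other tested H3K27ac peaks within 1 Mb had a median log2 difference of -0.24 in LM2, with 5 above and 6 below 0, and the median of chromosome 16 was 0.01. At lower coordinates than CDH11 the tested peaks had values of 0.91 to 4.71. At higher coordinates they ran from -1.49 to 0.15, and only the highest of these values was above 0. A peak 420.825 kb from the nearest CDH11 start (chr16:65580840-65583602) had 11.6 and 17.2 CPM in Par, 4.03 and 6.91 in LM2, with 7.39 and 5.51 in BrM2, and its differences of -1.49 in LM2 and -1.13 in BrM2 did not pass the DESeq2 test (adjusted p = 0.0749 and 0.241). One other H3K4me3 peak lay within 1 Mb, and it had at most 1.94 CPM in any library. Its log2 difference in LM2 was -0.90, beside -0.94 at the CDH11 promoter. The part of a regional level in the CDH11 values was not tested.

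CDH1 gained H3K27ac at a peak within the gene in BrM2, and its promoter peak was not called. The peak with the highest level, in an intron 52.123 kb from the start (chr16:68823318-68829351, 6034 bases), held 14.6 and 18.8 CPM in Par, 34.9 and 25.8 in LM2, with 42.8 and 37.6 in BrM2. All metastatic libraries were above both Par libraries. It rose by 1.28 ± 0.35 in BrM2 (2.43-fold, DESeq2 adjusted p = 0.00876) and by 1.04 ± 0.30 in both metastatic lines together (adjusted p = 0.0177). In LM2 the difference was 0.81 ± 0.34 (95% interval 0.13 to 1.48, adjusted p = 0.231), and BrM2 and LM2 differed by 0.47 ± 0.34 (-0.19 to 1.13). The rise in BrM2 lost its call without Par replicate 1, BrM2 replicate 1 or BrM2 replicate 2, with values of 1.1 to 1.37 and adjusted p of 0.103 to 0.339. The call in both lines together was lost without any one library other than LM2 replicate 2, with values of 0.87 to 1.23 and adjusted p of 0.0664 to 0.402. The 63 other tested peaks within 1 Mb had a median of 0.19 in BrM2 and chromosome 16 one of 0.13.

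The other 5 H3K27ac peaks of CDH1 were lower and none was called. The peak 8 bases from the start had 2.96 and 1.57 CPM in Par, 1.40 and 1.596 in LM2, with 4.08 and 2.01 in BrM2. The peak 62.341 kb downstream had 2.96 and 3.39 CPM in Par, 5.43 and 5.58 in LM2, with 6.88 and 6.52 in BrM2, a log2 difference of 1.08 ± 0.62 in BrM2 (DESeq2 adjusted p = 0.406). Summed over its 6 peaks, CDH1 had 34.0 and 38.6 CPM in Par, 56.7 and 48.9 in LM2, with 70.6 and 69.7 in BrM2, and the 3 lines did not overlap. All 6 CDH1 peaks had a positive value in BrM2, from 0.32 to 1.31, beside 30545 of all 62195 H3K27ac peaks. The called peak made up 14.6 and 18.8 CPM of the sum in Par, and most of it in LM2 and BrM2. The sum was not tested.

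SNAI1 had 7 H3K27ac peaks, and 1 of them was called. It lies in an intergenic region 60.173 kb downstream of the start, beside the long non-coding gene TRERNA1 (chr20:48659690-48665034), whose name refers to translational regulation. It held 11.4 and 14.1 CPM in Par, 38.8 and 29.8 in LM2, with 19.1 and 19.5 in BrM2. LM2 was highest, BrM2 lay between and the lines did not overlap. It rose by 1.37 ± 0.36 in LM2 (2.58-fold, DESeq2 adjusted p = 0.0082) and by 0.99 ± 0.32 in both metastatic lines together (adjusted p = 0.0479). The difference in BrM2 was 0.60 ± 0.38 (95% interval -0.14 to 1.35, adjusted p = 0.477), and that between BrM2 and LM2 was -0.76 ± 0.36 (adjusted p = 0.313). Without any one Par or LM2 library the LM2 value was 1.19 to 1.53 with adjusted p of 0.076 to 0.522. The call in both lines together was lost without any one of the 6 libraries (0.84 to 1.15, adjusted p of 0.118 to 0.509) and without independent filtering (adjusted p = 0.0599). Within 1 Mb the 136 other tested peaks had a median of 0.12 in LM2.

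Nearer to SNAI1, the peak over its last exon (chr20:48604252-48607675) had a like pattern in the values. It held 9.35 and 8.61 CPM in Par, 17.5 and 24.5 in LM2, with 9.18 and 11.5 in BrM2, a log2 difference of 1.15 ± 0.42 in LM2 that did not pass (DESeq2 adjusted p = 0.115). At the promoter itself the groups overlapped, with 12.1 and 11.2 CPM in Par, 8.22 and 14.4 in LM2, with 10.5 and 18.5 in BrM2. The assignment of distal peaks to SNAI1 rests on distance alone.

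**Figure D3:**
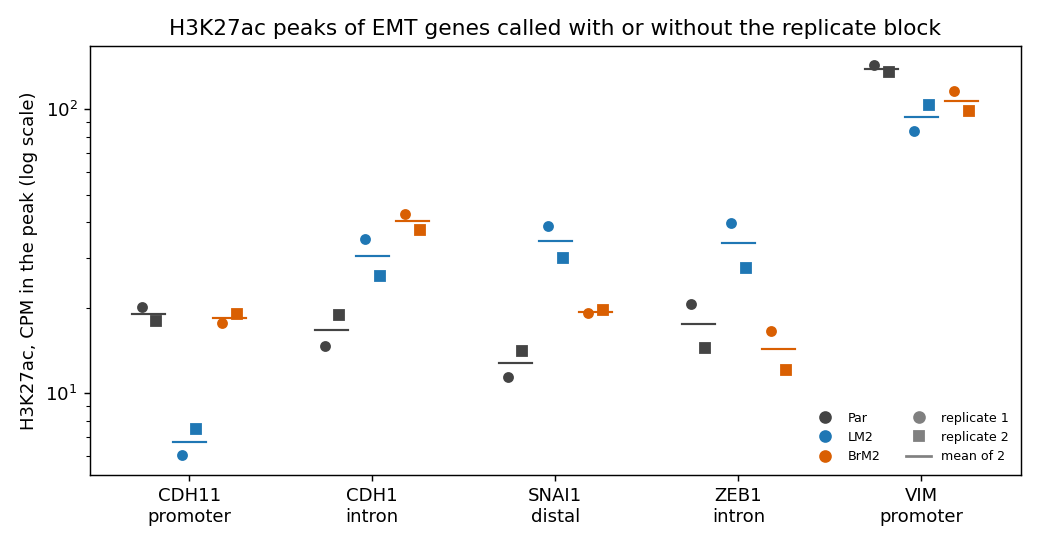
H3K27ac in CPM on a log axis for the 5 member peaks called in any contrast by DESeq2 with or without the replicate block, by line and replicate. CDH11 is low in both LM2 libraries (6.05 and 7.45 CPM), the CDH1 intron peak is higher in all metastatic libraries than in Par, and the SNAI1 distal and ZEB1 intron peaks are highest in LM2.

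ZEB1 had its main H3K27ac peak over the promoter (chr10:31602552-31610346), with 83.5 and 129 CPM in Par, 96.9 and 148 in LM2, with 94.3 and 121 in BrM2. Replicate 2 was above replicate 1 in each line and the lines overlapped (log2 difference 0.14 ± 0.32 in LM2 and 0.02 ± 0.32 in BrM2). A second strong peak in an intron, 105.939 kb downstream of the start (chr10:31714084-31717924), behaved otherwise. It held 20.5 and 14.4 CPM in Par, 39.7 and 27.7 in LM2, with 16.6 and 12.03 in BrM2. Both LM2 libraries were above the other 4. Its difference was 0.89 ± 0.38 in LM2 against Par (DESeq2 adjusted p = 0.226) and -1.15 ± 0.39 in BrM2 against LM2 (adjusted p = 0.0826). With the replicate block the latter was -1.17 with an adjusted p of 0.0149, and edgeR without the block gave -1.16 with an adjusted p of 0.048. With chromosome medians removed it was -1.41 (DESeq2 adjusted p = 0.017). The remaining 6 ZEB1 peaks were under 6 CPM on average and none was called.

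This intron region held 3 matches to the AP-1 letters TGANTCA. These letters are a loose form of the site bound by FOS and JUN factors, which are common at enhancers. Of the 3 matches, 2 read TGACTCA and the remaining match reads TGAATCA. With 0.781 matches per kb the region was above the 0.441 per kb over all H3K27ac peaks. Of the 3372 peaks of similar length (within 10% of its length), 77.79% held at least 1. It had 0 E-boxes with the letters CACCTG or CAGGTG (both motifs were searched on both strands), while 94.4% of those peaks had at least 1. The 2 matches that read TGACTCA are shown with 40 bases on each side because the element was called between the metastatic lines in some of the fits. Both are from GRCh37, plus strand and intronic, at chr10:31715215-31715301 and chr10:31716354-31716440, with the match in capitals.
ZEB1 intron AP-1 match nearer the start: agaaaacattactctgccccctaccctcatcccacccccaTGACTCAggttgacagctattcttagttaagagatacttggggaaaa
ZEB1 intron AP-1 match farther from the start: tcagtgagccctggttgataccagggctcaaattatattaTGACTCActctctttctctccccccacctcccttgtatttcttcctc

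Among the called H3K27ac peaks, the CDH1 intron peak held 8 E-boxes and 1 AP-1 match, the distal SNAI1 peak 6 and 0, and the CDH11 peak 1 and 0. Of peaks of similar length to each, 98.74%, 98.03% and 88.96% held at least 1 E-box. At least 1 AP-1 match was held by 90.1%, 88.82% and 67.89%, in the same order. E-boxes per kb were 1.33, 1.12 and 0.354. Over all 59 members there were 0.450 AP-1 and 0.9004 E-box matches per kb, beside 0.441 and 1.02 over all H3K27ac peaks. No relation between a match and a change in H3K27ac was tested.

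**Figure D4:**
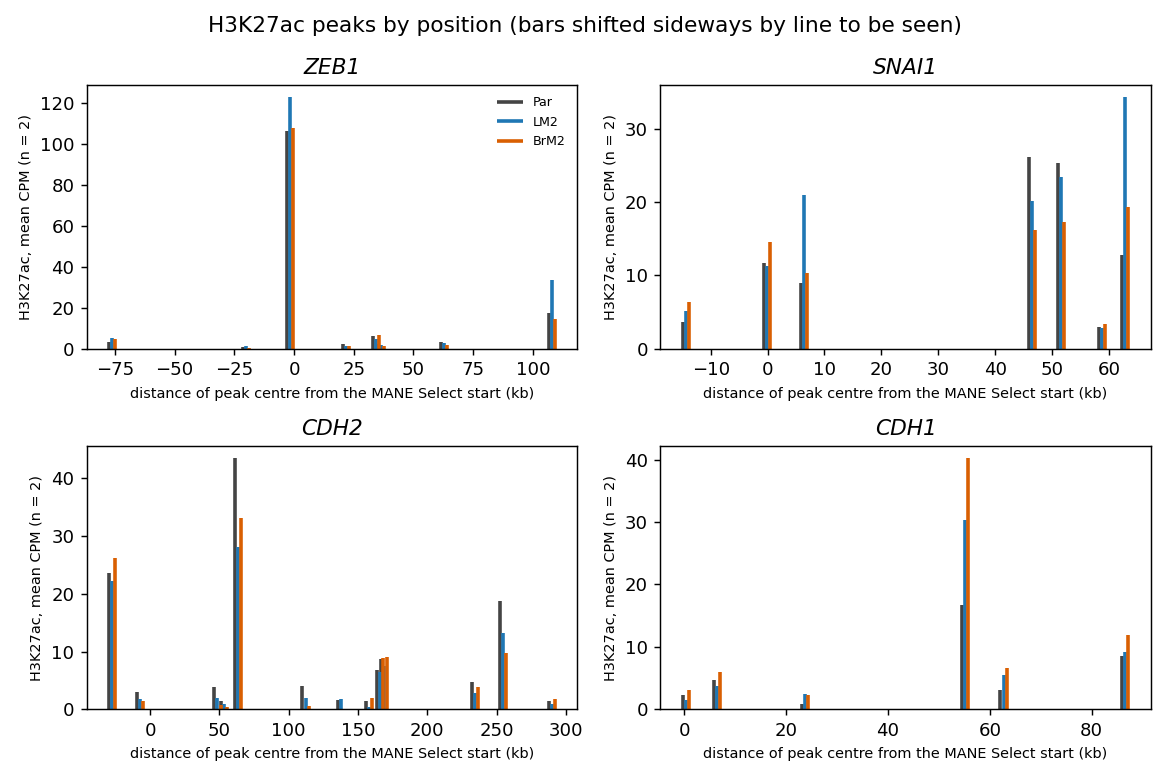
Mean H3K27ac (CPM, n = 2 per line) of each member peak of ZEB1, SNAI1, CDH2 and CDH1 against the distance of the peak centre from the MANE Select start in kb, with bars of the 3 lines shifted sideways. The LM2 bar stands out at the ZEB1 intron and SNAI1 distal peaks, and the CDH1 intron peak is lowest in Par.

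VIM had a 10090-base H3K27ac peak over the whole gene start (chr10:17266782-17276871), with 143 and 135 CPM in Par, 83.9 and 103 in LM2, with 115 and 98.2 in BrM2. All metastatic libraries were below both Par libraries, whereas H3K4me3 at the same place overlapped. The log2 difference was -0.63 ± 0.26 in LM2 (95% interval -1.15 to -0.12, DESeq2 adjusted p = 0.205) and -0.37 ± 0.27 in BrM2 (adjusted p = 0.571). With the replicate block the LM2 value was -0.64 with an adjusted p of 0.0431, which made VIM the third called member in LM2. The 57 other tested peaks within 1 Mb of it had a median of -0.39 in LM2 and 47 of them were below 0, while the median of chromosome 10 was -0.19. The part of this regional level in the VIM value was not tested. The other 4 VIM peaks had between 4.75 and 7.14 CPM on average and none was called.

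CDH2 was marked by H3K27ac at 13 places although it had no promoter H3K4me3 peak. The highest peak lies in an intron 60.535 kb from the MANE Select start (chr18:25691172-25696559) and held 51.8 and 35.2 CPM in Par, 22.8 and 33.5 in LM2, with 32.9 and 33.6 in BrM2. Par was above both metastatic lines, but the difference of -0.70 ± 0.34 in LM2 and -0.39 ± 0.35 in BrM2 did not pass (DESeq2 adjusted p = 0.352 and 0.69). The next, upstream of the gene (chr18:25782582-25786094), held 26.0 and 21.4 CPM in Par, 26.2 and 18.3 in LM2, with 29.3 and 23.1 in BrM2. Values below 0 were found at 13 of 13 CDH2 peaks in LM2 (-1.62 to -0.01) and at 8 of 13 in BrM2. Over all 62195 H3K27ac peaks, 32024 were below 0 in LM2 and 31650 in BrM2. The 14 other tested peaks within 1 Mb of the highest CDH2 peak had a median of 0.59 in LM2, and 11 of them were above 0. In BrM2 the median of 17 such peaks was 0.15. None of the 13 was called by DESeq2 in any contrast, and 5 of them had too few counts for an adjusted p in LM2. Summed, the 13 peaks held 134 and 112 CPM in Par, 89.8 and 91.7 in LM2, with 108 and 88.2 in BrM2.

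**Figure D5:**
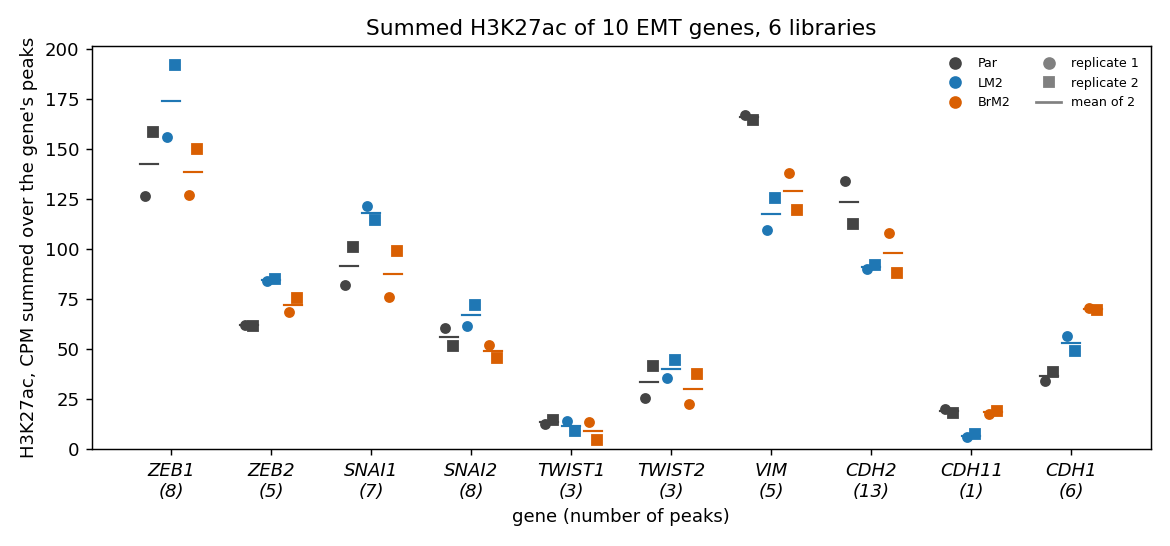
H3K27ac summed over all member peaks of each gene, in CPM, by line and replicate, with the number of peaks under each gene name. CDH1 is ordered Par, LM2, BrM2 without overlap (34.0 to 70.6 CPM), VIM and CDH2 are highest in Par, CDH11 is lowest in LM2, and the sums were not tested.

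ZEB2, SNAI2, TWIST1 and TWIST2 had no called H3K27ac peak. The ZEB2 promoter peak (chr2:145272868-145277685) held 48.6 and 43.8 CPM in Par, 62.0 and 60.1 in LM2, with 54.5 and 58.6 in BrM2, all metastatic libraries being above Par, with log2 differences of 0.34 ± 0.28 and 0.29 ± 0.28. The 26 other tested peaks within 1 Mb had a median of 0.75 in LM2 and 24 of them were above 0. The highest SNAI2 peak, 15.836 kb downstream of the start (chr8:49814773-49818152), held 18.5 and 17.0 CPM in Par, 22.8 and 30.8 in LM2, with 19.1 and 17.5 in BrM2 (0.53 ± 0.36 in LM2, DESeq2 adjusted p = 0.639). Here too the 35 neighbours within 1 Mb had a median of 0.46 in LM2. TWIST1 and TWIST2 encode basic helix-loop-helix factors of mesoderm and EMT. The highest TWIST1 peak, 92.34 kb from the start (chr7:19063440-19064919), held 7.30 and 7.83 CPM in Par, 8.37 and 4.52 in LM2, with 9.43 and 2.51 in BrM2, and the replicates of BrM2 spanned the whole range. The highest TWIST2 peak, 14.842 kb downstream of the start (chr2:239771568-239776735), held 19.4 and 28.4 CPM in Par, 25.9 and 29.8 in LM2, with 13.3 and 23.6 in BrM2, and the groups overlapped. With 5 counts in the lowest library of the TWIST1 peak and a 95% interval of -1.48 to 0.96 in BrM2, a moderate difference there was not detectable at this depth.

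Other genes of the program were read from 3 lists. As background, 1.97% of all tested H3K4me3 peaks rose and 0.538% fell in LM2, and 2.82% rose and 0.791% fell in BrM2. For H3K27ac 2.72% rose and 0.907% fell in LM2, and 3.62% rose and 1.67% fell in BrM2. Of 14 further EMT transcription factors and their opponents, 12 had 14 promoter H3K4me3 peaks, of which 1 was higher and 0 lower in LM2 and 1 higher and 0 lower in BrM2 (DESeq2; under the block 2 and 0 in LM2, then 3 and 1 in BrM2). OVOL2, a repressor that opposes EMT, had 25.8 and 25.8 CPM in Par, 46.4 and 70.0 in LM2, with 26.8 and 33.6 in BrM2. It rose by 1.18 ± 0.35 in LM2 (DESeq2 adjusted p = 0.0305). A TCF4 promoter peak, at one of the starts of this E-box factor, had 0 counts in both Par libraries, 0 and 0.102 CPM in LM2, with 4.58 and 6.20 CPM in BrM2. It was called in BrM2 (adjusted p = 0.00187) and was at least 8.25-fold higher there, taking 3 counts per Par library as the limit that a count of 0 allows.

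The same list had 43 H3K27ac peaks, 35 of them with an adjusted p in LM2 and 37 in BrM2. Of these 1 rose and 0 fell in LM2 and 2 rose and 2 fell in BrM2, and the block added 1 fall in LM2. PRRX1, a homeobox factor of mesenchymal cells, moved both ways. Its promoter peak rose in LM2 (2.74 and 2.35 CPM in Par, 8.84 and 11.4 in LM2, 1.92 ± 0.58, DESeq2 adjusted p = 0.0319). In BrM2 a peak 57.966 kb away rose by 1.96 ± 0.65 (adjusted p = 0.0487), and one 75.282 kb away fell by 1.14 ± 0.37 (adjusted p = 0.0397). A peak 31.688 kb from GRHL2, an epithelial activator that opposes ZEB1, had 8.44 and 8.61 CPM in Par, 12.4 and 10.6 in LM2, with 25.0 and 19.0 in BrM2. It rose by 1.38 ± 0.42 in BrM2 (DESeq2 adjusted p = 0.0238).

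Of 20 epithelial junction and keratin genes, 19 had 28 promoter H3K4me3 peaks, 26 of them with an adjusted p in LM2 and 28 in BrM2. Of these 0 rose and 2 fell in LM2 and 1 rose and 2 fell in BrM2 (3 and 4 in each with the block). The claudin gene CLDN4 had 43.6 and 71.3 CPM in Par, 2.75 and 7.42 in LM2, with 9.60 and 19.5 in BrM2. It fell by 3.44 ± 0.46 in LM2 (DESeq2 adjusted p = 7.64e-11), and it fell by 2.04 ± 0.44 in BrM2 (adjusted p = 0.000267). KRT7, a keratin of simple epithelia, had 114 and 127 CPM in Par, 30.1 and 43.7 in LM2, with 20.1 and 25.8 in BrM2. It fell by 1.69 ± 0.32 in LM2 (DESeq2 adjusted p = 3.21e-05), and it fell by 2.47 ± 0.33 in BrM2 (adjusted p = 2.41e-11). CLDN7 went the other way, with 27.2 and 33.1 CPM in Par, 21.3 and 28.2 in LM2, with 77.9 and 73.9 in BrM2, a rise of 1.28 ± 0.34 in BrM2 (DESeq2 adjusted p = 0.00754). In BrM2, 1 of the 28 epithelial promoter peaks rose and 2 fell, beside 2.82% and 0.791% of all tested H3K4me3 peaks.

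In H3K27ac, the epithelial list had 93 peaks, 75 of them with an adjusted p in LM2 and 80 in BrM2. Of these 0 rose and 1 fell in LM2 and 1 rose and 4 fell in BrM2 (0 and 3, and 1 and 6, with the block). A peak over the keratin gene KRT8 had 62.7 and 85.6 CPM in Par, 33.5 and 44.1 in LM2, with 30.3 and 41.1 in BrM2. Its difference in LM2 was -1.0 ± 0.32 (DESeq2 adjusted p = 0.0479), and both BrM2 libraries were as low as those of LM2. In BrM2 a peak near ELF3, an epithelial transcription factor, fell by 1.98 ± 0.58 (adjusted p = 0.0169), and one over TJP1, which encodes the tight junction protein ZO-1, fell by 1.40 ± 0.46 (adjusted p = 0.0429). A peak 53.575 kb from EPCAM, which encodes an epithelial adhesion molecule, rose by 1.33 ± 0.41 in BrM2 (DESeq2 adjusted p = 0.0314), with 13.9 and 14.1 CPM in Par and 38.2 and 31.6 in BrM2. The median over the list was -0.18 in LM2 and -0.20 in BrM2.

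Of 20 mesenchymal and matrix genes, 17 had 19 promoter H3K4me3 peaks, 18 of them with an adjusted p in LM2 and 19 in BrM2. Of these 0 rose and 0 fell in either line against Par (DESeq2, and under the block 2 and 2 in LM2, then 2 and 5 in BrM2). Of 128 H3K27ac peaks 96 had an adjusted p in LM2 and 102 in BrM2. Among them 2 rose and 0 fell in LM2 and 0 rose and 0 fell in BrM2 (2 and 1, and 1 and 2, with the block). Both rises were at low levels. A peak 23.619 kb from LOX, which encodes a collagen cross-linking enzyme, had 2.96 and 1.31 CPM in Par, 12.2 and 9.57 in LM2, with 8.92 and 5.51 in BrM2, a rise of 2.28 ± 0.61 in LM2 (DESeq2 adjusted p = 0.0102). A peak over THY1, a surface antigen of fibroblasts, had 1.14 and 2.61 CPM in Par, 7.13 and 10.6 in LM2, with 6.12 and 6.52 in BrM2, a rise of 2.19 ± 0.65 in LM2 (DESeq2 adjusted p = 0.028). The medians of the list were 0.07 in LM2 and -0.22 in BrM2.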

How the data were processed

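Counts of 12 H3K4me3 and H3K27ac ChIP-seq libraries were used, and all count columns were matched to samples by their names. Per the submitters' processing notes and the study's methods, the authors trimmed reads with Trimmomatic 0.32, aligned them to hg19 with Bowtie2 2.3.4.3, marked duplicates with Picard 2.18.21, filtered alignments with SAMtools and called broad peaks with MACS2 2.1.2 on the merged libraries of each mark. The deposited values are raw read counts per consensus peak and library from featureCounts, with reads extended by 150 bases. Regions marked in only 1 line can be underrepresented in peaks called on merged libraries.

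Peaks were annotated with GENCODE release 44 lifted to GRCh37. Differences were tested with DESeq2 1.42.0 (R 4.3.3) on all peaks of a mark, with line as the only term (3 residual degrees of freedom), its default size factors and no shrinkage of log2 fold changes. P-values were adjusted by the Benjamini-Hochberg method over the peaks of the mark that passed its independent filtering on mean count (20821 of 22572 for H3K4me3 and 48931 of 62195 for H3K27ac in LM2). A peak was called at an adjusted p under 0.05, and a missing adjusted p was left missing. Errors are SE of the fit, and 95% intervals are Wald intervals. CPM used the total count in peaks. DESeq2 used its own size factors, so that the order of libraries can differ between CPM and the test. edgeR 4.0.16 was an alternative, and other normalizations, filters, distances and left-out libraries were tried. On simulated counts for LM2 against Par, 167 of 200 changed H3K4me3 peaks and 137 of 200 changed H3K27ac peaks were recovered. There were 16 and 13 false calls. Recovery was not tested for the member peaks alone, at their own levels and sizes of difference.

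Replicate numbers came from the sample titles. Deviations of same-numbered libraries from their line means correlated with r of 0.788 to 0.843 over 13309 H3K4me3 peaks and 0.407 to 0.607 over 20124 H3K27ac peaks (peaks averaging 50 normalized counts or more). The numbers may therefore pair libraries, although no label names a shared batch. Depth also went with the number in every line. For H3K4me3, replicate 1 had 3489607 to 4581712 counts in peaks and replicate 2 had 6714331 to 9839629. For H3K27ac, replicate 1 was the deeper library of each line. The part of depth in these correlations was not tested. The main fit did not use them, because the study's methods state no block, and the fit with the block was an alternative. Adding the replicate number as a block to DESeq2 left 2 residual degrees of freedom. The study's methods call the replicates of each line biological, and p-values measure the spread between these cultures of 1 selected population only. All genes of the list were named whatever their values, with the highest peak and every called peak of each. From the 3 further lists the 2 largest and 2 smallest called changes per mark and line were named, except for 1 gene that is not reported here. No member had a called H3K4me3 peak in the main fit, so that no genes of like pattern were sought. The members and lists were chosen with earlier results of these data known.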

Additional observations from a re-analysis of the deposited data

Results flagged for a closer look

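The CDH11 H3K27ac peak was picked out because its change against Par differed between the metastatic lines in a direct test. BrM2 was higher than LM2 by 1.52 ± 0.42 on the log2 scale (DESeq2 adjusted p = 0.0164), with both BrM2 libraries (17.6 and 19.0 CPM) above both LM2 libraries (6.05 and 7.45 CPM). The counts behind these values were 69 and 38 in BrM2 and 39 and 28 in LM2. With the replicate block the difference was 1.52 with an adjusted p of 0.00586 (DESeq2). Without 1 library the adjusted p ran from 0.0551 to 0.459 for 5 of the 6 libraries, with differences of 1.34 to 1.67. The part of DNA copy number in this difference was not tested.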

How the results depend on the processing

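The number of called members was recomputed under each alternative, and so was the log2 difference of each member peak with an unadjusted p under 0.05. No such difference changed sign. For H3K4me3, where DESeq2 called 0 members in each contrast, the replicate block gave 2 in LM2, 1 in BrM2, 1 in both lines and 2 in BrM2 against LM2. edgeR with the block gave 2, 3, 4 and 3 of 8 members, beside 5903, 7512, 6126 and 8720 of all 22572 peaks. In LM2, CDH11 alone was called with loess offsets, chromosome medians removed or at least 10 counts in every library (1 each). For H3K27ac, edgeR with the block gave 8, 5, 8 and 6 of 59 members in the same order, beside 8213, 9892, 9411 and 7803 of all 62195 peaks. edgeR without it gave 2 in BrM2 and 2 in BrM2 against LM2, where the block in DESeq2 and chromosome medians removed also gave 2. Without independent filtering 1 member was called in both lines. With members within 50 kb, 1 was called in LM2 and 1 in both lines. Leaving out 1 library gave 0 to 2 members in LM2, 0 to 1 in BrM2, 0 to 1 in both lines and 0 to 1 in BrM2 against LM2, and the lowest count in LM2 came without any one Par or LM2 library. With a library left out, its line had 1 sample, which was assumed to vary like the others. The count of all called peaks ran from 100 to 5903 (H3K4me3) and from 358 to 8213 (H3K27ac) in LM2 and moved by over 1.5 times under 8 settings in each. In LM2 the DESeq2 block added the VIM promoter peak (3 called). Beside these, the block changed no call of a member. Peaks under about 3 CPM had too few counts for a moderate difference to be detected.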

Other observations

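A group of H3K27ac peaks far downstream of CDH11 was noticed after its values were seen. It lies outside the 100 kb limit, although CDH11 has the nearest protein-coding start. The peak 816.021 kb from the nearest CDH11 start (chr16:64183635-64190831) held 2.28 and 0.783 CPM in Par, 47.4 and 38.0 in LM2, with 19.1 and 23.1 in BrM2. It rose by 4.71 on the log2 scale in LM2 (DESeq2 adjusted p = 3.74e-15) and by 3.74 in BrM2 (adjusted p = 3.93e-09). The peak beside it, 809.858 kb away, held 1.14 and 1.57 CPM in Par, 41.4 and 17.8 in LM2, with 15.8 and 15.0 in BrM2, and rose by 4.40 in LM2 (adjusted p = 6.35e-10) and by 3.53 in BrM2 (adjusted p = 4.27e-06). The CDH11 promoter peak was called lower in LM2 and was not called in BrM2. Whether these peaks act on CDH11 was not tested.

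Small CDH2 intron peaks were lower in BrM2 in single fits. The peak at chr18:25644682-25645278 had 22 and 12 counts in Par, 18 and 5 in LM2, with 3 and 1 in BrM2. Its difference of -2.62 ± 1.08 in BrM2 did not pass in DESeq2 (adjusted p = 0.158) and was called by edgeR (-2.56, adjusted p = 0.0322), with a range of -3.01 to -2.25 over the alternatives. The counts in BrM2 are too low to give the size of this difference closely.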
